A study of Homo sapiens with 24 samples.

Results

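Expression of 10 genes of IL-24 and gp130 cytokine signalling was examined in MDA686TU (686Tu) cells, an established line of head and neck cancer. The genes encode 1 cytokine of the IL-10 family (IL24), 3 chains of the receptors of that family (IL20RB, IL22RA1, IL10RB), 3 cytokines that signal through gp130 (IL6, LIF, IL11), gp130 itself (IL6ST), a receptor chain that pairs with it (OSMR) and an inhibitor of the pathway (SOCS3). They were chosen by symbol from the 60617 genes of the deposited table, after earlier results on these libraries were known, so their own differences between the groups are given as descriptions and carry no p-value. All 10 passed the filter on low counts, as did 15476 genes in all.

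Transcripts were measured by RNA-seq in 24 libraries, 6 in each of 4 groups: no treatment (control), 40 µM EGCG, 15 µM resveratrol, or the combination of 40 µM EGCG and 15 µM resveratrol. Treatment lasted 24 h. EGCG is epigallocatechin gallate, the main catechin of green tea, and resveratrol is a stilbene polyphenol of grapes. The resveratrol was diluted from a stock in DMSO and the EGCG was dissolved in water, so the resveratrol and combination groups share a solvent, and the sources used here do not say whether the controls received it. The model is a single cell line at a single dose of each agent and a single time. The study states that RNA was isolated 6 times per group. It does not say whether these were separate cultures, so the tests measure the spread between these libraries, which may be partly technical.

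IL-24 belongs to the IL-20 subfamily of the IL-10 family. It acts through receptors built from IL20RB paired with IL20RA or with IL22RA1, which activate Janus kinases and STAT3, and it is known from keratinocytes, immune cells and wounded epithelium. IL-6, LIF, IL-11 and oncostatin M all use gp130 as the signalling chain and reach the same transcription factor, and SOCS3, itself a target of STAT3, binds gp130 and shuts the signal off.

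The libraries held 7034872 to 11735574 counts each. The 8 markers of squamous epithelium examined were all expressed. Their summed normalized counts per library were 150815 to 161088 in controls and 145643 to 164308 in EGCG libraries. They were lower, without overlap, in resveratrol (124866 to 133640) and combination libraries (123421 to 134318). None of 6 leukocyte markers reached a normalized count of 10 in any library (summed counts of 3.86 to 14.3). Of 4 fibroblast markers only COL1A1 reached that level, with summed counts of 875 to 1092 in EGCG libraries, 1084 to 1328 in controls, 1284 to 1532 in resveratrol libraries and 1500 to 1720 in combination libraries. Of 3 endothelial markers only VWF reached it. The part of the squamous marker differences and of COL1A1 expression in the results below was not tested. In each group the mitochondrial share of counts lay between 0.249 and 0.326% in replicates 1 to 3, and was higher in replicates 4 to 6, at 0.448 to 0.775%, so values are also given within these replicates where they differ. Combination replicate 3 stood apart from the other combination libraries for IL22RA1 and IL6ST, and results that rest on it are given without it as well.

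For 9 of the 10 genes a promoter sequence was found in the RefSeq table (GRCh38.p14), and the entry for LIF was not found there. The 250 bases before the start site were searched on both strands for a STAT site (TTCNNNGAA), an AP-1 site (TGANTCA), the core of the xenobiotic response element (GCGTG) and an ATF4 element (TGATGNAA). The STAT letters stand in 6.57% of 35116 promoters of this length and were found in none of the 9 genes. The AP-1 letters, in 6.57% of all promoters, stood in IL22RA1 and IL11. The GCGTG letters, in 32.2% of all, stood in IL11 and in front of both start sites listed for SOCS3, and the ATF4 letters, in 3.14% of all, stood in IL20RB. The sequence before IL24, the gene with the largest difference among the 10, held none of the 4 motifs. It is shown with the AP-1-bearing sequences of IL11, also called lower with resveratrol, and IL22RA1, called higher, as described below. Each sequence is written 5′ to 3′ on the strand of its gene, and capitals mark the matched letters (in IL11, GCGTG and then TGAGTCA). IL24 lies at chr1:206897193-206897442 (plus strand), IL11 at chr19:55370464-55370713 (minus strand) and IL22RA1 at chr1:24143141-24143390 (minus strand), all upstream of the transcript. No 2 matches overlapped in these sequences. A match is a description of the letters and shows no binding.
IL24: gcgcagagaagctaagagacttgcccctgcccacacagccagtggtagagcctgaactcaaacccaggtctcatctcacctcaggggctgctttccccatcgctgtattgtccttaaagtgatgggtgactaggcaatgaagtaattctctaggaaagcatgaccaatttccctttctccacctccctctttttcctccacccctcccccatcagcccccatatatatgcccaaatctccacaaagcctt
IL11: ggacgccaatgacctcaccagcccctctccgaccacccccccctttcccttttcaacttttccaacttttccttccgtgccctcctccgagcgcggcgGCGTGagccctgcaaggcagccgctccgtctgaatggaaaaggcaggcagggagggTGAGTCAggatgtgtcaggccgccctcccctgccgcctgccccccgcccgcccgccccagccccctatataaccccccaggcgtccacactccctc
IL22RA1: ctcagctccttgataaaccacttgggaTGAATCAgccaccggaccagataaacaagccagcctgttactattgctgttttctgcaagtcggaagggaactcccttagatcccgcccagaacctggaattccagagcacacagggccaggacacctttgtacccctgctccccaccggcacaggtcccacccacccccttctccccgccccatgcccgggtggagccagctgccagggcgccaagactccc

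The levels of the 10 genes were compared per length, as FPKM, in the control group. IL20RB was the most abundant, at 56.6 ± 2.16 FPKM (SD, n = 6). OSMR followed at 16.2 ± 0.494 and IL6ST at 9.35 ± 0.348, and none of these 3 ranges overlapped. SOCS3, at 5.15 ± 0.799, and IL24, at 4.85 ± 0.506, did not differ beyond their spread. IL6 (2.18 ± 0.265), LIF (1.66 ± 0.266) and IL22RA1 (1.39 ± 0.277) came next, each overlapping its neighbour, and IL22RA1 overlapped IL11 at 0.809 ± 0.212. IL10RB was lowest as counted, at 0.384 ± 0.104 FPKM, below the range of IL11, but it shares sequence with a readthrough gene, as described below. IL6ST and OSMR stood above the 3 gp130 cytokines of the list, and IL20RB stood above IL24, while the chains that pair with IL20RB stood below IL24: IL22RA1 at 1.39 FPKM and IL20RA, which is not among the 10, at 0.162 ± 0.0743 FPKM. IL6R, the chain that binds IL-6, was at 3.22 ± 0.289 FPKM, LIFR at 1.31 ± 0.098 and IL11RA at 0.0962 ± 0.0747. Of the other ligands, IL20 gave 10 counts and IL19 1 count over all 24 libraries, and OSM, the ligand of OSMR, had at most 1 count in any library.

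**Figure D1:**
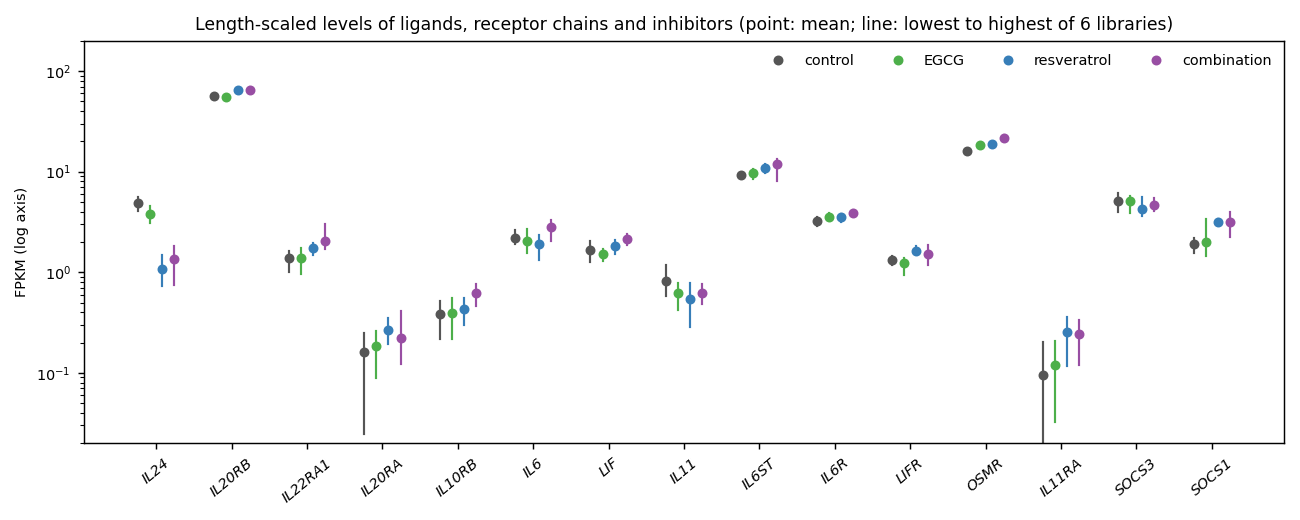
FPKM on a log axis for the 10 genes, 4 other receptor chains and SOCS1 in control, EGCG, resveratrol and combination libraries. Points are means and lines run from the lowest to the highest of 6 libraries, with a lowest value of 0 (IL11RA in control) drawn down to the foot of the axis. IL20RB lies highest in every group, and IL24 is at 4.85 FPKM in control against 1.07 in resveratrol and 1.35 in combination libraries.

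The main question was how each agent and their combination changed these genes. Calls were made with edgeR's quasi-likelihood test over all 15476 genes, at a Benjamini-Hochberg adjusted p under 0.1 and an unadjusted p under 0.05. With EGCG alone 1 of the 10 genes was called, OSMR, which was higher, where 1.88% of all tested genes were called and 0.963% were called higher. With resveratrol 7 of the 10 were called (56.9% of all genes), 4 higher (28.9% of all) and 3 lower (28.0% of all). With the combination 8 were called (59.8% of all), 7 higher (30.0% of all) and IL24 lower (29.8% of all). Against resveratrol alone the combination was called in 2 genes, IL6 and OSMR, both higher, where 7.83% of all genes were called, 4.01% higher and 3.82% lower. Against EGCG alone it was called in 8 (57.8% of all). The libraries of the paired groups did not overlap for 1 gene with EGCG (1.63% of all genes), for 4 with resveratrol (31.1%), for 4 with the combination (31.9%), for 1 between combination and resveratrol (3.19%) and for 4 between combination and EGCG (27.5%). These comparisons share libraries, and the values that follow are set side by side for that reason.

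**Figure D2:**
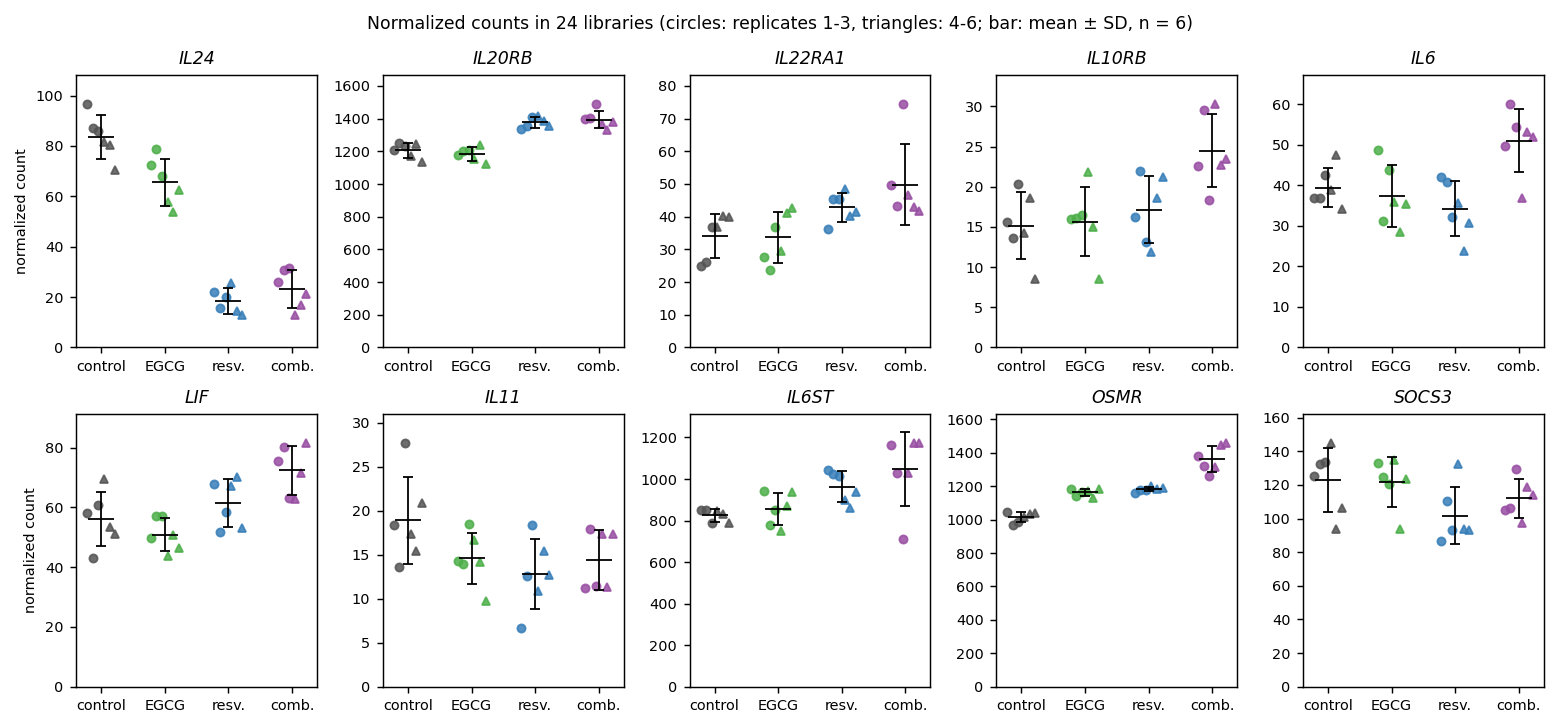
Normalized counts (linear axes from 0) of the 10 genes in each of the 24 libraries, with circles for replicates 1 to 3, triangles for replicates 4 to 6, and bars for the mean ± SD (n = 6). All resveratrol and combination values of IL24 (12.8 to 31.6) lie below all control values (70.3 to 96.8), and OSMR is higher in every treated library than in every control.

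IL24 (ENSG00000162892, chr1:206897443-206904139, plus strand, GRCh38) showed the largest difference of the 10 genes. Its normalized counts in control had a lowest, median and highest value of 70.3, 83.7 and 96.8. EGCG libraries had 53.9, 65.1 and 78.6, resveratrol libraries 12.8, 17.9 and 25.7, and combination libraries 13.0, 23.7 and 31.6. The EGCG libraries overlapped the controls, and every resveratrol and combination library lay below both. As these are bulk samples, fewer cells expressing a gene and less RNA per cell cannot be told apart. The control mean was 83.7 ± 8.75 and the EGCG mean 65.5 ± 9.27, against 18.4 ± 4.98 for resveratrol and 23.2 ± 7.45 for the combination (SD, n = 6). In raw reads these 4 groups summed to 513, 397, 118 and 136 counts.

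With resveratrol the log2 fold change of IL24 was -2.17 (SE 0.148, 95% interval -2.48 to -1.86), a level 0.222 times that of control, which placed it 5th from the bottom among the genes called lower in that comparison. With the combination it was -1.82 (SE 0.144, interval -2.12 to -1.52) and 8th from the bottom. It was similar within replicates 1 to 3 and 4 to 6 for resveratrol (-2.20 and -2.11), but for the combination it was -1.58 in the first 3 replicates and -2.16 in the others. The combination against resveratrol alone was 0.35 (interval -0.06 to 0.76), with 0.62 in replicates 1 to 3 and -0.05 in the other 3, and was not called. With EGCG alone IL24 had a log2 fold change of -0.35 (SE 0.115, interval -0.59 to -0.12) and was not called, although it was called lower when control replicate 6 (-0.40) or EGCG replicate 2 (-0.41) was left out, when only these groups were fitted (-0.35), and when a term for the set of replicates (1 to 3 or 4 to 6) was added (-0.36).

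IL24 lies in a cluster with IL10, IL19 and IL20, and its neighbours within 200000 bases were examined to see whether they moved with it. They were named after their values were seen. Of 5 tested neighbours 3 were called lower with resveratrol, where 28.0% of all genes were. With the combination 2 were called lower (29.8% of all) and 1 higher (30.0% of all). IL10 had no count in any library, which allows up to 3 counts over the 24 libraries together. MAPKAPK2, a stress-activated kinase, had mean normalized counts of 951 in control and 949 with resveratrol. C1orf116, on the other side, fell from 1604 ± 63.6 to 1037 ± 32.6 with resveratrol (log2 fold change -0.63, edgeR adjusted p = 1.35e-21) and to 1106 ± 52.5 with the combination (-0.53, adjusted p = 5.52e-19). FCMR lies on the opposite strand and its last bases overlap those of IL24, its last base lying 822 bases before the last base of IL24. It fell with resveratrol from 33.6 to 25.1 (log2 fold change -0.42, edgeR adjusted p = 0.017) and had a log2 fold change of -0.19 with the combination (adjusted p = 0.292). YOD1, a deubiquitinase, fell by a log2 fold of 0.21 with resveratrol (edgeR adjusted p = 0.0614) and 0.33 with the combination (adjusted p = 0.0038). PFKFB2, an enzyme of fructose 2,6-bisphosphate turnover, had 0.07 with resveratrol (edgeR adjusted p = 0.171) and rose by 0.10 with the combination (adjusted p = 0.067). The library kit kept strand, but the strand setting used in counting is not given in the sources used here, so reads of the overlap cannot be assigned with certainty.

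The receptor chains for IL-24 moved the other way, by much less. IL20RB (ENSG00000174564, chr3:136946230-137011085, plus strand), the shared chain of the IL-20 subfamily receptors, had lowest, median and highest normalized counts of 1135, 1220 and 1250 in control and 1121, 1189 and 1239 with EGCG. Resveratrol libraries had 1335, 1371 and 1419, and combination libraries 1328, 1388 and 1491. Both groups that held resveratrol lay above all controls, while EGCG overlapped them. IL20RB changed by a log2 fold of 0.20 (SE 0.0336) with resveratrol and 0.21 (SE 0.0337) with the combination, and 0.02 (interval -0.05 to 0.09) between the 2. The gene overlaps NCK1 on the same strand, which had 243 and 258 mean normalized counts in control and with resveratrol.

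IL22RA1 (ENSG00000142677, chr1:24119771-24143140, minus strand) pairs with IL20RB to bind IL-24 and IL-20, and with IL10RB to bind IL-22. Its lowest, median and highest normalized counts were 24.9, 36.8 and 40.2 in control, 23.7, 33.2 and 42.8 in EGCG, 36.3, 43.4 and 48.5 in resveratrol and 41.8, 44.9 and 74.5 in combination libraries. Combination libraries lay above all controls, the resveratrol libraries overlapped them, and the 74.5 of combination replicate 3 was far from the other 5, of which the highest was 49.6. On the log2 scale the combination raised it by 0.57 (SE 0.151), or 0.39 without that library. Replicates 1 to 3 alone gave 0.96, and replicates 4 to 6 gave 0.17, where it was not called. With resveratrol it was 0.34 (SE 0.153), with 0.56 in replicates 1 to 3 and 0.16, not called, in replicates 4 to 6. This call was also lost at an adjusted p under 0.05 and when control replicate 1 (0.28) or 2 (0.28) or resveratrol replicate 2 (0.32), 3 (0.32) or 4 (0.30) was left out.

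IL10RB (ENSG00000243646, chr21:33266367-33311420, plus strand), the second chain of the IL-10, IL-22 and interferon lambda receptors, was covered by 7 to 28 raw counts per library. Its lowest, median and highest normalized counts were 8.55, 15.0 and 20.3 in control, 8.56, 16.1 and 21.9 in EGCG, 11.9, 17.4 and 22 in resveratrol and 18.4, 23.1 and 30.3 in combination libraries. The combination libraries were the highest but overlapped the controls. IL10RB rose with the combination by a log2 fold of 0.68 (SE 0.198, interval 0.26 to 1.09), which was 0.50 and not called in replicates 1 to 3. Against resveratrol alone it was 0.49 (interval 0.10 to 0.89), which was not called, but was called without resveratrol replicate 2 (0.59) or combination replicate 3 (0.57). At this depth a difference of the size seen with resveratrol (0.18, interval -0.25 to 0.62) was not detectable. IL10RB shares sequence with the readthrough gene IFNAR2-IL10RB on the same strand, which averaged at most 0.276 normalized counts in a group. The counting program is not given in the sources used here. Whether reads of the shared sequence were left out of both counts is therefore not known, and the low counts of IL10RB may be partly due to this.

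**Figure D3:**
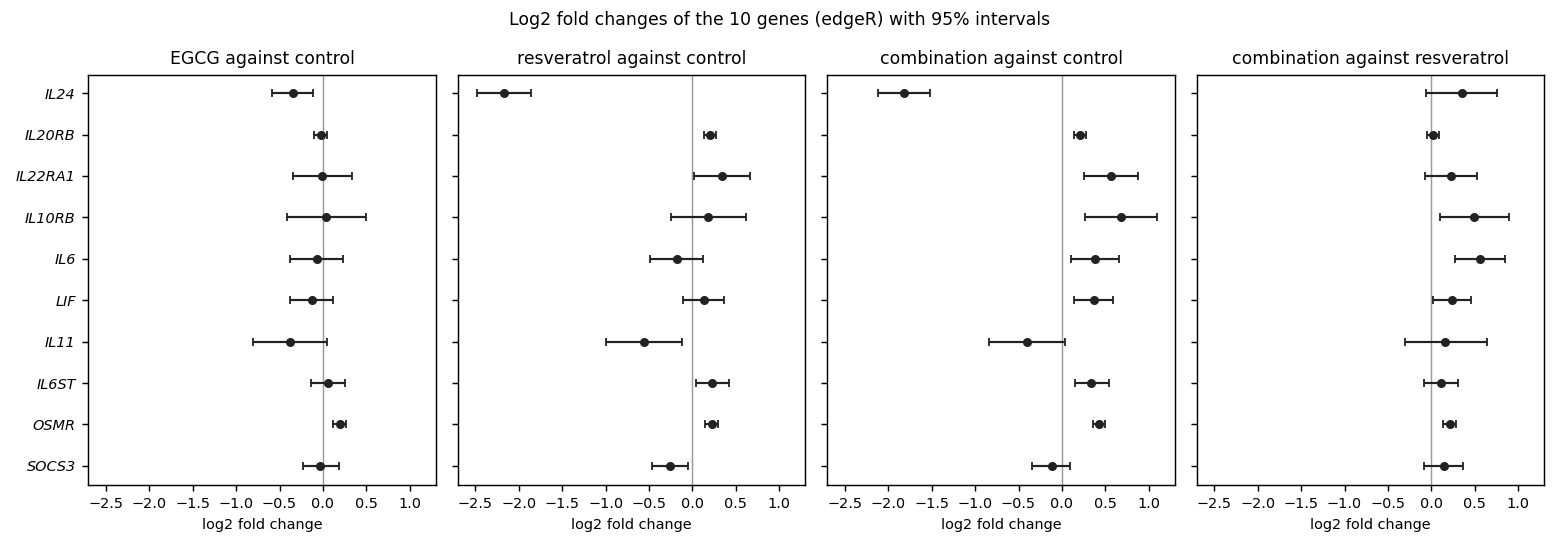
Log2 fold changes (edgeR) of the 10 genes with 95% intervals in 4 comparisons. IL24 stands alone far to the left with resveratrol (-2.17) and the combination (-1.82), and the other 9 genes lie between -0.56 (IL11, resveratrol) and 0.68 (IL10RB, combination).

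Of the gp130 cytokines IL11 was called lower with resveratrol, and IL6 and LIF were called higher with the combination. IL6 (ENSG00000136244, chr7:22725884-22732002, plus strand), the cytokine of the acute-phase response, had lowest, median and highest normalized counts of 34.2, 37.8 and 47.4 in control, 28.4, 35.7 and 48.8 in EGCG, 23.7, 34.0 and 42.0 in resveratrol and 36.8, 52.6 and 60.1 in combination libraries. The combination libraries were the highest, with 5 of 6 above all controls, and no resveratrol library exceeded the highest control. Log2 fold changes of IL6 were -0.18 (SE 0.145) with resveratrol, 0.38 (SE 0.136) with the combination, and 0.56 for combination against resveratrol (SE 0.139, interval 0.27 to 0.85). Within replicates 1 to 3 and 4 to 6 the last was 0.50 and 0.65, and it was not called in the first. The increase over control was 0.24 and not called in replicates 4 to 6. IL6 overlaps STEAP1B on the other strand, which had mean normalized counts of 135 in control and 121 with the combination.

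LIF (ENSG00000128342, chr22:30240453-30246759, minus strand), leukemia inhibitory factor, had lowest, median and highest normalized counts of 43.0, 55.8 and 69.4 in control, 43.7, 50.3 and 57.3 in EGCG, 51.8, 62.9 and 70.2 in resveratrol and 62.8, 73.5 and 81.5 in combination libraries. The combination libraries lay above every EGCG library and overlapped the other groups. The log2 fold change with the combination was 0.37 (SE 0.11) against control and 0.50 (SE 0.112) against EGCG. With resveratrol alone it was 0.13 (interval -0.11 to 0.36), and in replicates 4 to 6 the combination was 0.31 over control and not called.

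IL11 (ENSG00000095752, chr19:55364382-55370463, minus strand), which acts on stromal, epithelial and megakaryocytic cells, had the lowest FPKM of the 4 cytokines, with 7 to 30 raw counts per library. Its lowest, median and highest normalized counts were 13.7, 17.9 and 27.7 in control, 9.78, 14.3 and 18.4 in EGCG, 6.69, 12.7 and 18.3 in resveratrol and 11.3, 14.4 and 17.9 in combination libraries. All groups overlapped. The log2 fold change was -0.56 (SE 0.211) with resveratrol, which was called lower but lost without control replicate 3 (-0.40) and within both sets of replicates (-0.64 and -0.46). With the combination it was -0.40 (interval -0.84 to 0.04) and was not called, but it was called without control replicate 2 (-0.47) or combination replicate 2 (-0.47), 4 (-0.46) or 6 (-0.46).

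Among the gp130 receptor chains OSMR, the oncostatin M receptor (ENSG00000145623, chr5:38845858-38945596, plus strand), was higher with each agent and highest with both. Its lowest, median and highest normalized counts were 970, 1024 and 1048 in control libraries, 1127, 1170 and 1182 in EGCG libraries, 1162, 1181 and 1199 in resveratrol libraries and 1264, 1350 and 1458 in combination libraries. No treated library overlapped the controls, and no combination library overlapped a library with one agent. OSMR rose by a log2 fold of 0.20 (SE 0.0345) with EGCG, 0.22 (SE 0.0343) with resveratrol and 0.43 (SE 0.0342) with the combination, and 0.21 (SE 0.0338) for the combination over resveratrol. On the log2 scale the departure from the sum of the 2 single effects was 0.01 (interval -0.09 to 0.11). In replicates 1 to 3 and 4 to 6 the combination gave 0.42 and 0.45. OSMR overlaps RICTOR on the other strand, which had mean normalized counts of 506 in control and 469 with the combination.

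IL6ST (ENSG00000134352, chr5:55935095-55995022, minus strand), which encodes gp130, had lowest, median and highest normalized counts of 786, 838 and 852 in control libraries, 750, 860 and 941 in EGCG libraries, 863, 976 and 1045 in resveratrol libraries and 711, 1098 and 1173 in combination libraries. Resveratrol libraries lay above all controls. Of the combination libraries 5 lay at 1029 or above and replicate 3, at 711, below every control. IL6ST rose by a log2 fold of 0.23 (SE 0.0928) with resveratrol and 0.34 (SE 0.093) with the combination, or 0.43 without combination replicate 3. Without that library the combination was also called higher than resveratrol (0.20), which it was not with all 6 (0.11, interval -0.08 to 0.30). In replicates 1 to 3 neither comparison with control was called (0.34 with resveratrol and 0.23 with the combination). A processed pseudogene on the other strand overlaps IL6ST, with mean normalized counts of 81.0 in control and 93.4 in combination libraries.

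SOCS3 (ENSG00000184557, chr17:78356778-78360077, minus strand), the inhibitor, had lowest, median and highest normalized counts of 93.8, 129 and 145 in control, 93.6, 124 and 135 in EGCG, 86.9, 93.7 and 132 in resveratrol and 97.5, 110 and 130 in combination libraries. All groups overlapped. With resveratrol SOCS3 had a log2 fold change of -0.26 (SE 0.101), which was called lower, but not without control replicate 4 (-0.19), in replicates 4 to 6 (-0.10), or with library size alone as the scaling (-0.17). With the combination it was -0.12 (interval -0.34 to 0.09) and was not called.

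Whether the combination departed from the sum of the 2 agents on the log2 scale was tested with an interaction term. None of the 10 genes was called by edgeR, where 0.304% of all genes were, and none by DESeq2. The unadjusted p was under 0.05 for 3 of the 10, and for 1198 of the 15476 tested genes. Their terms were 0.70 (interval 0.23 to 1.18) for IL24, 0.64 (interval 0.22 to 1.06) for IL6 and 0.37 (interval 0.04 to 0.70) for LIF. Replicates 1 to 3 alone gave terms of 0.93 for IL24 and 0.39 for IL6, and replicates 4 to 6 gave 0.38 and 0.95.

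Other genes of the same pathways were read from 9 lists of 71 genes, of which 53 were tested. The lists too were chosen after earlier results on these libraries were known, so the adjusted p-values of their genes are not an independent test of the pathways. With EGCG 2 of the 53 were called (1.88% of all tested genes), both higher: VEGFA (log2 fold change 0.14, edgeR adjusted p = 0.0244), the vascular growth factor, and IL4R (0.18, adjusted p = 0.0468), a receptor chain of IL-4. With resveratrol 39 were called (56.9% of all), 23 higher (28.9%) and 16 lower (28.0%). With the combination 40 were called (59.8% of all), 23 higher (30.0%) and 17 lower (29.8%). The combination differed from resveratrol in 10 of the 53 (7.83% of all), 5 higher and 5 lower. The median log2 fold change over the 53 was 0.03 with resveratrol and 0.05 with the combination, beside 0.00371 and -0.00151 over all tested genes.

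**Figure D4:**
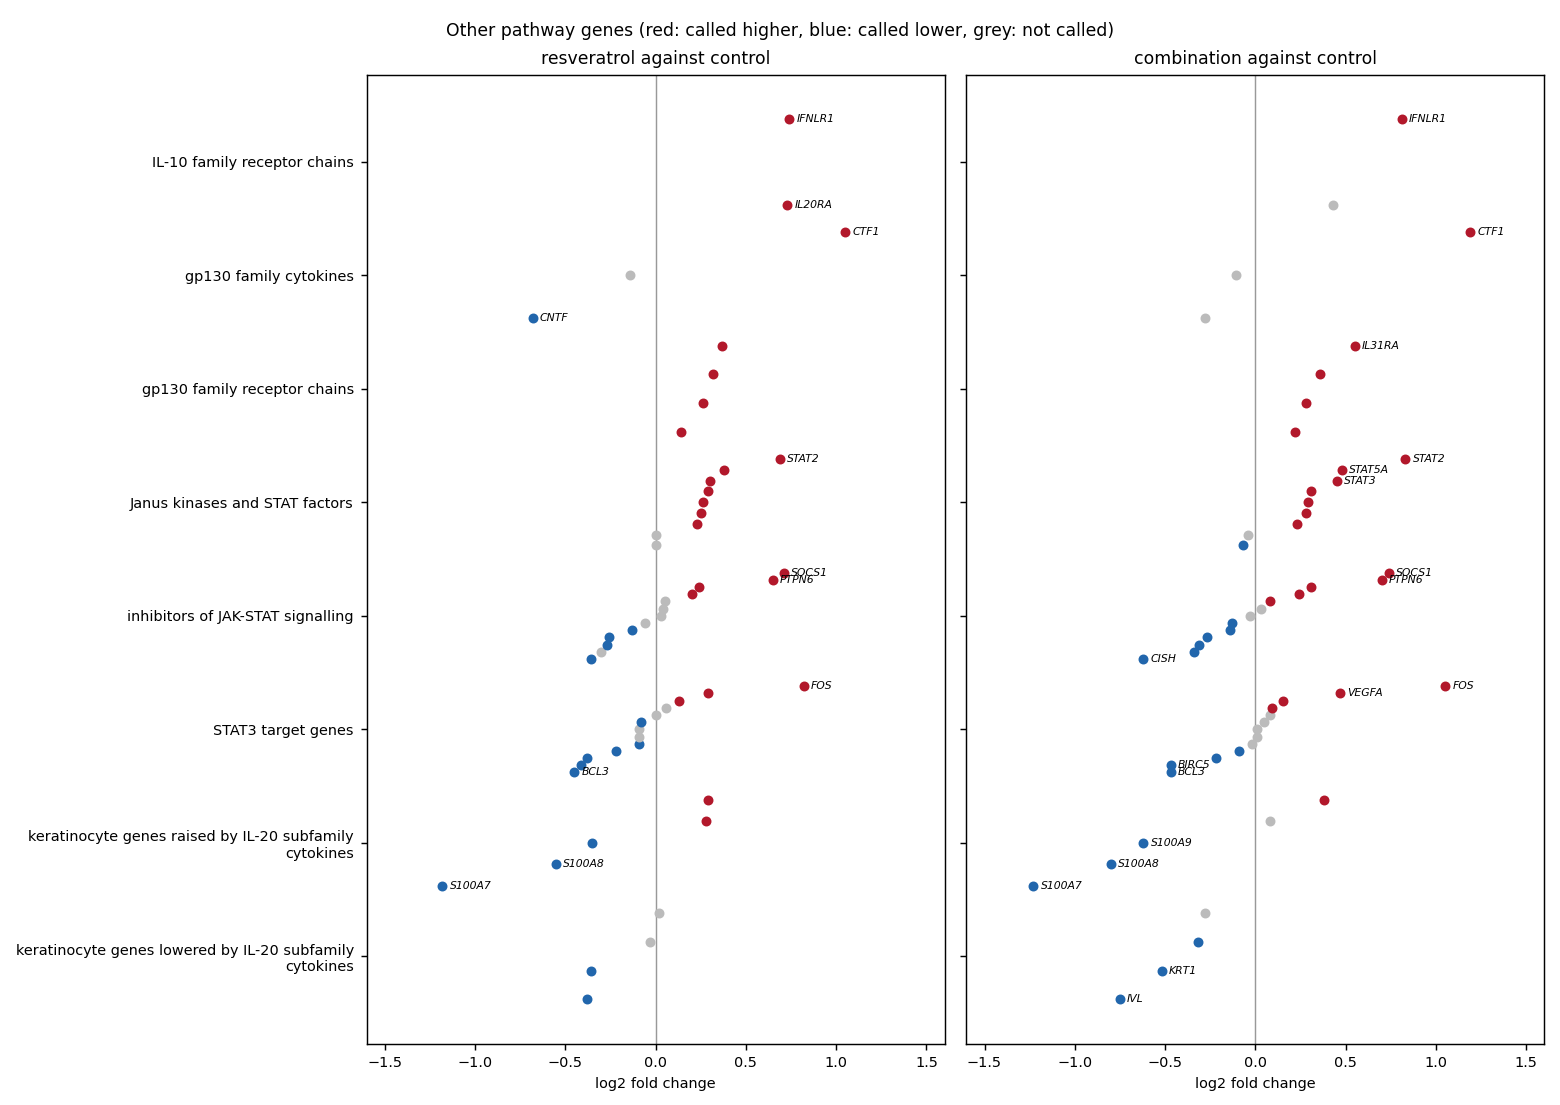
Log2 fold changes of the tested pathway genes other than the 10, by list, with resveratrol and with the combination against control (red called higher, blue called lower, grey not called). Every tested receptor chain of the gp130 family lies to the right of 0 in both panels, and S100A7, S100A8 and S100A9 lie to the left. KRT16 and LCN2, of the same list as these S100 genes, lie to the right.

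The list of Janus kinases and STAT factors was not limited to those of IL-24 and gp130 signalling. Of its 9 tested genes 7 were called higher with resveratrol and none lower (median log2 fold change 0.26). Of all tested genes 28.9% were called higher and 28.0% lower. For the combination 7 were higher (30.0% of all) and 1, STAT6, lower (-0.07, edgeR adjusted p = 0.0649), where 29.8% of all were lower. STAT3, the main factor of gp130 and IL-24 signalling, had mean normalized counts of 1256 ± 48.6 in control, 1335 ± 12.4 in EGCG, 1536 ± 61.0 in resveratrol and 1713 ± 79.4 in combination libraries. Relative to control it changed by a log2 fold of 0.29 with resveratrol (edgeR adjusted p = 1.73e-10), 0.45 with both agents (adjusted p = 9.37e-17) and 0.16 between these groups (adjusted p = 0.00152). STAT2, a factor of the interferon response, rose by 0.69 with resveratrol (edgeR adjusted p = 1.91e-18) and by 0.83 with the combination (adjusted p = 1.31e-21). TYK2 rose by 0.26 and 0.31 and JAK1 by 0.23 and 0.29 in the same 2 comparisons (edgeR, all adjusted p at most 2.03e-06). JAK2, which was low, at 0.647 ± 0.125 FPKM in control, had log2 fold changes of 0 and -0.04.

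Of 6 other listed receptor chains of the gp130 family, not all of which pair with gp130 itself, 4 were tested. These were called higher with resveratrol (28.9% of all genes) and with the combination (30.0% of all). They were IL6R (log2 fold change 0.14 and 0.28), LIFR (0.32 and 0.22), IL27RA (0.26 and 0.36) and IL31RA (0.37 and 0.55). The weakest of these 8 calls was IL6R with resveratrol (edgeR adjusted p = 0.0698). IFNLR1, which pairs with IL10RB to bind interferon lambda, rose by 0.74 (edgeR adjusted p = 2.88e-10) and 0.81 (adjusted p = 1.86e-11). IL20RA, the other partner of IL20RB, was called higher with resveratrol (0.73, SE 0.291, edgeR adjusted p = 0.0326) and had 0.43 with the combination (adjusted p = 0.246). Of the other gp130 cytokines CTF1, cardiotrophin, rose from 10.5 ± 2.49 normalized counts to 21.7 ± 2.41 with resveratrol (1.05, edgeR adjusted p = 2.75e-05) and 23.9 ± 4.62 with the combination (1.19, adjusted p = 2.82e-06). CNTF, ciliary neurotrophic factor, fell with resveratrol (-0.68, edgeR adjusted p = 0.0433) and had -0.28 with the combination (adjusted p = 0.409).

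The inhibitors and the target genes went in both directions. Of 13 inhibitors of JAK-STAT signalling other than SOCS3, 4 were called higher (28.9% of all genes) and 4 lower (28.0%) with resveratrol. With the combination 5 were called higher (30.0% of all) and 6 lower (29.8%). SOCS1, an inhibitor of Janus kinases, rose by 0.71 (edgeR adjusted p = 5.21e-05) and 0.74 (adjusted p = 3.03e-05), and PTPN6, the phosphatase SHP-1, by 0.65 (adjusted p = 4.33e-15) and 0.70 (adjusted p = 2e-16). PTPN2, another phosphatase of STAT factors, fell to log2 fold changes of -0.26 and -0.34 (edgeR adjusted p = 0.000157 and 1.76e-06). Of 13 tested STAT3 target genes 3 were called higher (28.9% of all genes) and 6 lower (28.0%) with resveratrol. With the combination 4 were called higher (30.0% of all) and 4 lower (29.8%). The survival factor BIRC5 fell (-0.41 and -0.47, edgeR adjusted p = 3.07e-14 and 1.51e-16), as did BCL3, a regulator of NF-κB (-0.45 and -0.47, adjusted p = 8.53e-05 and 5.9e-05), while VEGFA rose (0.29 and 0.47, adjusted p = 5.05e-10 and 3.17e-17). The kinase PIM1 was higher with the combination than with resveratrol (0.23, edgeR adjusted p = 0.0131), and the cyclin CCND1 was lower (-0.15, adjusted p = 0.00104).

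Keratinocyte genes known to respond to IL-20 subfamily cytokines were read in the same way. Of 5 genes that these cytokines raise, 2 were called higher (28.9% of all genes) and 3 lower (28.0%) with resveratrol. With the combination 1 was called higher (30.0% of all) and 3 lower (29.8%). Those called lower in both were S100A7, S100A8 and S100A9, which encode antimicrobial S100 proteins. S100A7, at 14 ± 4.47 normalized counts in control, fell to 6.10 ± 1.80 with resveratrol (log2 fold change -1.18, edgeR adjusted p = 0.000282) and 5.89 ± 1.77 with the combination (-1.23, adjusted p = 0.000229). S100A8 had -0.55 and -0.80 (edgeR adjusted p = 1e-05 and 1.35e-08), and S100A9 -0.35 and -0.62 (adjusted p = 0.00229 and 4.17e-06). Of the other 2 genes of this list, the stress keratin KRT16 rose with resveratrol (0.29, edgeR adjusted p = 0.000671) and had 0.08 with the combination (adjusted p = 0.323). LCN2, lipocalin, rose in both (0.28 and 0.38, edgeR adjusted p = 0.00316 and 8.77e-05). Of 4 tested genes that these cytokines lower, which mark terminal differentiation, 2 were called lower with resveratrol (28.0% of all genes) and 3 with the combination (29.8%). None was called higher, where 28.9% and 30.0% of all genes were. IVL, involucrin, had -0.36 and -0.75 (edgeR adjusted p = 0.0161 and 3.31e-05), and KRT1 had 0.02 and -0.52 (adjusted p = 0.891 and 3.56e-05). KRT10 had -0.03 and -0.32 (edgeR adjusted p = 0.53 and 5.62e-10), and was the 1 gene of the 53 with a called interaction.

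The genes whose pattern over the 24 libraries was most like that of IL24, by Pearson's r of log2 CPM, were SOX15 (r = 0.969), FOSL1 (0.966), FAF1 (0.960), IL1B (0.959) and KREMEN2 (0.959). These points share the difference between groups with and without resveratrol. After each library was centred on its group and its set of replicates (1 to 3 or 4 to 6), r was 0.607 for SOX15, 0.522 for FOSL1, 0.375 for FAF1, 0.362 for KREMEN2 and 0.18 for IL1B. FOSL1, an AP-1 subunit, had log2 fold changes of -0.82 with resveratrol and -0.68 with the combination, and IL1B had -1.49 and -1.14, each smaller in size than the -2.17 and -1.82 of IL24. For SOCS3 the likest genes were THOP1 (r = 0.776), EPN1 (0.757), ENSG00000234080 (0.754), SF3A2 (0.747) and SH3GL1 (0.745), and their centred r was 0.67 to 0.694. The log2 fold changes of these 5 with resveratrol lay between -0.16 and -0.07.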

How the data were processed

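The authors isolated total RNA, made stranded mRNA libraries from it and sequenced paired ends. According to the submitters' processing notes they used bcl2fastq 2.17.1.14, Trimmomatic 0.36, FastQC 0.11.5, HISAT2 2.0.4, SAMtools 1.3.1 and DESeq2 1.20.0, with GRCh38 as the build. The counting program and its strand setting are not given in the sources used here. The authors deposited raw counts per gene. They also deposited a normalized signal, equal to the raw counts divided by 1 factor per library, and FPKM, in a constant ratio to it for all 33693 genes with a count. Raw counts were tested, normalized counts are printed, and FPKM was used to compare genes.

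Samples were grouped by the labels. The members and lists were chosen with earlier results of these data known. edgeR 4.0.16 (TMM scaling, quasi-likelihood test, all 24 libraries in 1 fit with 4 group means, genes kept by its expression filter) gave the log2 fold changes and Benjamini-Hochberg adjusted p-values over 15476 genes. Calls needed an adjusted p under 0.1 and an unadjusted p under 0.05. Intervals are 95%. Log2 CPM values used a prior count of 2. Named pathway genes were those called, at most 4 per list and comparison by smallest p, and a fixed set of kinases, STAT factors, receptors and ligands. The 5 genes most like IL24 and SOCS3 were those with the highest Pearson's r. The script was tested on simulated data. Alternatives were DESeq2 1.42.0, other scalings, filters and thresholds, a replicate block, replicates 1 to 3 or 4 to 6, and each of the 24 libraries left out. R was 4.3.3. Same-group libraries differed beyond counting error (chi-square per degree of freedom of 1.209 to 6.14 over 60 pairs), so none was counted as a duplicate. Gene positions are from GENCODE 44.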

Additional observations from a re-analysis of the deposited data

Results flagged for a closer look

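In 40 groups of 6 libraries (10 genes in 4 groups), 3 held a value far from the other 5 by Dixon's test, which by chance alone flags about 1 in 20 groups. IL22RA1 was 74.5 normalized counts in combination replicate 3, where the next library was at 49.6. IL6ST was 711 in the same library, where the next was at 1030. SOCS3 was 93.6 in EGCG replicate 5, where the next was at 120. The cause of these values was not tested.

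KRT10 was lower with the combination than the sum of the single effects on the log2 scale (interaction -0.24, edgeR adjusted p = 0.0261). Its mean normalized counts were 689 ± 22.3 in control, 666 ± 19.7 in EGCG, 674 ± 15.4 in resveratrol and 553 ± 16.7 in combination libraries (SD, n = 6).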

How the results depend on the processing

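No log2 fold change of the 10 genes that was called changed sign under an alternative. Of 1418 recomputed values 1394 moved by less than the SD between libraries of a group. Many of these fits left out only 1 library, which can move a group mean little, so this count is a weak check. The counts of pathway genes called moved most with the thresholds. The shares of all tested genes called under these alternatives were not computed. The counts that follow, of pathway genes and of the 10 genes, therefore show only how the calls depend on the setting. A fold of at least 1.5 left 0 calls with EGCG, 9 with resveratrol, 11 with the combination, 0 against resveratrol, 11 against EGCG and 0 for the interaction, and an adjusted p under 0.05 left 6 for combination against resveratrol. For EGCG against control, 4 were called with a replicate block and 4 with a term for replicates 1 to 3 against 4 to 6, 0 in replicates 1 to 3 alone and 1 in replicates 4 to 6 alone, and the interaction had 0 calls in either set alone. Leaving out 1 library gave 1 to 3 calls with EGCG (1 without control replicate 5 or 6 or EGCG replicate 3), 37 to 40 with resveratrol, 37 to 40 with the combination, 7 to 9 against resveratrol, 35 to 37 against EGCG and 1 to 2 for the interaction (2 without combination replicate 3). For same-numbered libraries 2 of 36 correlations of their deviations were over 0.1 (median 0.0488). The median was 0.0276 for libraries of another number in the same set of replicates (1 to 3 or 4 to 6). It was -0.0406 for libraries of different sets. Of 24 libraries 11 correlated best with their own number, out of 6 possible numbers. Whether same-numbered libraries belong together was not tested. In the replicate block IL24 was called lower with EGCG (2 of the 10 genes in place of 1), and no other call of the 10 changed. Scaling by library size alone moved the median log2 fold change of all genes to 0.09 with resveratrol and 0.08 with the combination, and took SOCS3 off the called genes. A filter of 10 counts in every library removed IL10RB and IL11. Low counts limit these 2 genes.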
